A study of Mus musculus with 18 samples.

Results

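The prominin genes Prom1 and Prom2 are described here in mouse liver tumours. They were chosen by symbol, by matching the Ensembl identifiers of the count table to GENCODE M21, and are 2 of the 55335 genes in that table. Both passed the filter on low counts that left 17013 genes to test. Prom1 (ENSMUSG00000029086.15) lies on chromosome 5 at 43993620 to 44102032, and Prom2 (ENSMUSG00000027376.15) on chromosome 2 at 127526473 to 127541467, both on the minus strand of GRCm38. They are on different chromosomes.

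Prominins are membrane glycoproteins that span the membrane several times and sit in protrusions such as microvilli and primary cilia, where they bind cholesterol. Prominin-1, also called CD133, marks progenitor-like cells of the liver and of its tumours, and is made by bile duct epithelium. Prominin-2 is its paralogue and is found in many epithelia.

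Poly-A RNA of bulk hepatocellular carcinomas was sequenced in 12 libraries, 3 in each of 4 groups. DEN+CCl4 tumours arose in mice given the carcinogen DEN (N-nitrosodiethylamine, 1 mg/kg) when 14 days old, and from 8 weeks of age, for 12 to 16 weeks with 2 doses a week, the liver toxin CCl4 (carbon tetrachloride, 0.2 ml/kg). N-Ras+AKT tumours arose after tail vein injection of plasmids for NRasV12 and myr-AKT (20 µg each) with 1.6 µg of the transposase that inserts them. Each model has a control and a depletion group. In the depletion groups, tamoxifen (4 mg doses, every other day, once tumours had formed) activates the CreERT2 of the Prom1C-L allele, which switches on diphtheria toxin A from Rosa26DTA in cells that use the Prom1 promoter. Tissue was taken 16 days after the last dose in the DEN+CCl4 model and 6 days after it in the N-Ras+AKT model, so time and model cannot be told apart. The strain label is Prom1C-L/+;Rosa26DTA/+ for all 12 libraries, controls included, whereas the design text names littermates with Prom1+/+ and also an olive oil vehicle. The 4 mg tamoxifen dose and the 16 or 6 days after it are listed for the control libraries as for the depletion libraries. What set the controls apart, a missing knock-in allele, the vehicle in place of tamoxifen, or the 2 together, is thus not known here. The knock-in lies in the Prom1 locus itself, so a lower Prom1 transcript level from that allele and a loss of Prom1-expressing cells cannot be told apart if controls lacked it. In bulk tissue, fewer cells of a type and less RNA per cell cannot be told apart either. Nothing in the labels says that the 3 libraries of a group came from separate animals, so p-values measure the spread between these libraries.

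Library totals ran from 31306617 to 48055812 counts. In a principal component analysis of all tested genes, N-Ras+AKT depletion 17 stood apart from the other libraries of its group on the component with 19.9% of the variance, and DEN+CCl4 depletion 6 on the component with 11.5%. Both had the lowest Prom1 level of their group, so the Prom1 and Prom2 depletion differences and the list counts are also given without both.

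A stretch before a RefSeq start site of each gene is shown, because the genes differed in where they were transcribed. For Prom1 this start site lies inside the gene, so its stretch is sequence of the gene and not upstream of it. The windows are 250 bases before a RefSeq start site (GRCm38.p6), with bases inside annotated exons left out, on the minus strand and written 5′ to 3′. Capitals mark matches, on either strand, of CCAAT (the CCAAT box of NF-Y) or GGGCGG (the GC box of Sp1).
Prom1, start site inside the gene, chr5:44094769-44095018: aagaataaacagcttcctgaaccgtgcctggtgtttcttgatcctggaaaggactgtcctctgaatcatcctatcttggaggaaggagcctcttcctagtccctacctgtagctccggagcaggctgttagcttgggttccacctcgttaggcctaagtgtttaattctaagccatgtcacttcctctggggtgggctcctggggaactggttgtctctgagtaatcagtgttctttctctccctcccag
Prom2, chr2:127541468-127541667: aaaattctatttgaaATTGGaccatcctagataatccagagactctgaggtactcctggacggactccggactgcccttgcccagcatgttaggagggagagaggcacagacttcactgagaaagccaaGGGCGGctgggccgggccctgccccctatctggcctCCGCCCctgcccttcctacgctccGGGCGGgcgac
The Prom2 window of 200 bases had 60% G or C, 9 CpG, 1 match of CCAAT and 3 matches of GGGCGG. These motifs occur in 28.4% and 24.6% of 32851 windows of that length. The Prom1 window of 250 bases had 50.8% G or C and 3 CpG, and no match of either motif, which occur in 33.8% and 32.7% of windows of that length. Neither window held TGACTCA (Jun/Fos) or TATAAA (the TATA box). The motifs were chosen with the sequences in view. The window of the other Prom1 start site lies inside annotated exons and is not shown.

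Prom1 was transcribed at like levels in the control tumours of both models. Levels are CPM, counts scaled to a common library size, after TMM, a normalisation that sets libraries to a common level over most genes. In DEN+CCl4 controls 7, 8 and 13 Prom1 had 60.09, 76.71 and 48.90 CPM, from 1688, 2782 and 1690 counts. In N-Ras+AKT controls 3, 10 and 15 it had 45.36, 59.21 and 78.25 CPM, from 2749, 3217 and 3875 counts. The ranges of the control groups overlapped almost completely. The means were 61.9 ± 14.0 and 60.9 ± 16.5 CPM (SD, n = 3), and the log2 difference, N-Ras+AKT minus DEN+CCl4, was −0.02 (SE 0.56, 95% interval −1.27 to 1.22). It did not pass edgeR's quasi-likelihood test (Benjamini-Hochberg adjusted p = 0.98). In this comparison 40.6% of the genes tested passed and 19.8% passed as lower in N-Ras+AKT, while 2.78% had a difference as small as that of Prom1 or smaller. The sign of the difference turned without DEN+CCl4 control 8 (0.16) or N-Ras+AKT control 3 (0.15), and the interval does not show that the levels are equal.

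Prom2 was present in the DEN+CCl4 controls and had no count in the N-Ras+AKT controls. DEN+CCl4 controls 7, 8 and 13 had 922, 811 and 613 counts, or 32.82, 22.36 and 17.74 CPM. N-Ras+AKT controls 3, 10 and 15 had 0, 0 and 0 counts among 129870608 counts in all. The groups did not overlap, as held in this direction for 26.1% of the genes tested. Against a floor of 3 counts per library, a mean of 0.0551 CPM, the DEN+CCl4 control mean of 24.3 ± 7.73 CPM (SD, n = 3) was at least 441-fold higher. This floor covers counting error only. Prom2 passed edgeR's test (adjusted p = 7.56e-05), and also the test for a difference beyond 1 on the log2 scale (glmTreat, adjusted p = 0.000303). It passed under all 13 alternatives run, with adjusted p from 4.81e-17 to 0.000524.

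**Figure D1:**
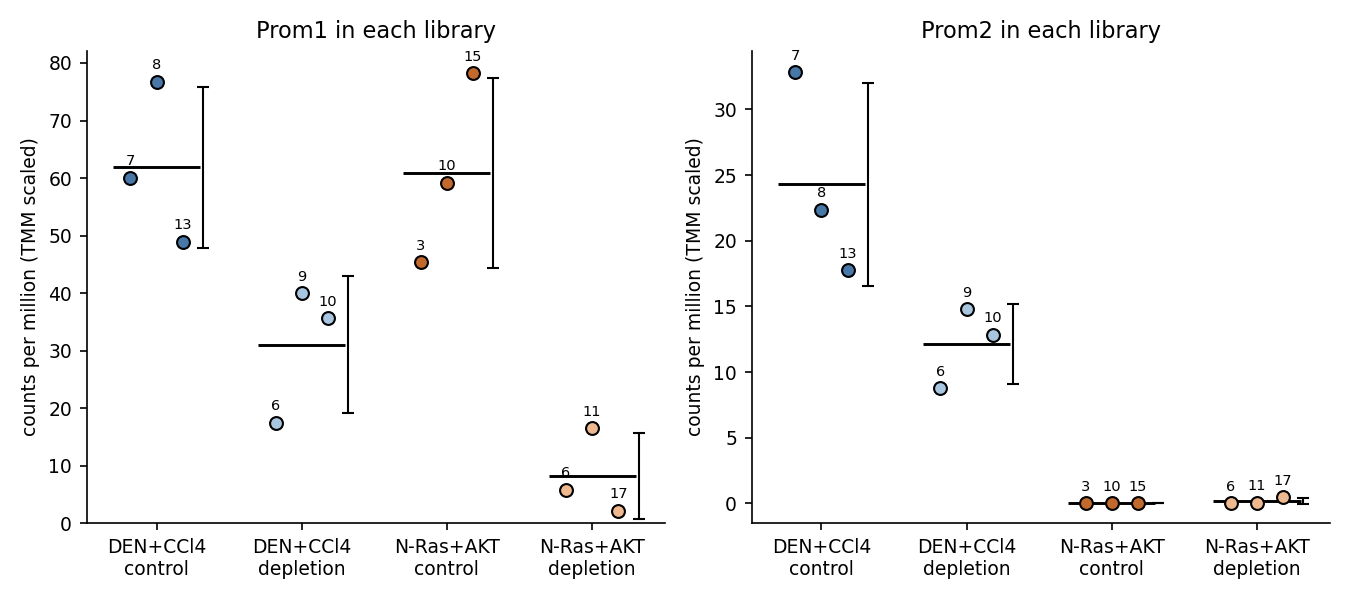
Prom1 (left) and Prom2 (right) in each library, in TMM-scaled CPM on a linear axis; points are libraries with their replicate numbers, horizontal lines group means and bars 1 SD (n = 3). Prom1 is at 45.36 to 78.25 CPM in all controls and lowest in N-Ras+AKT depletion 17 at 2.166 CPM, while Prom2 lies at or near 0 in both N-Ras+AKT groups.

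The plot of all genes in the control tumours of both models places Prom1 on the line of equal levels and Prom2 on the lower edge.

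**Figure D2:**
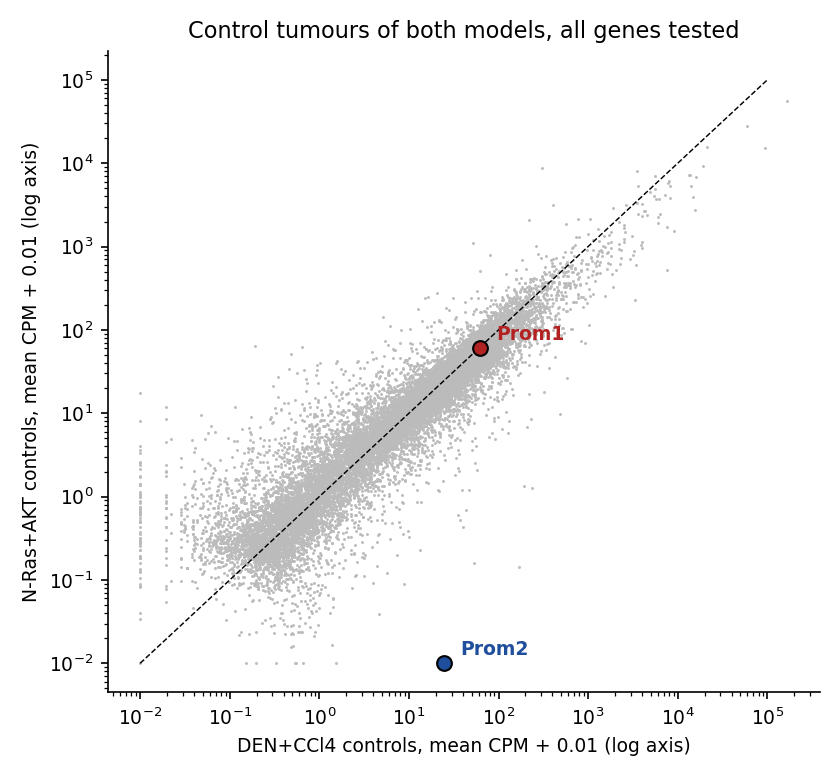
Mean CPM plus 0.01 in the DEN+CCl4 controls (horizontal, log axis) and the N-Ras+AKT controls (vertical, log axis), n = 3 each; each grey point is 1 of the 17013 genes tested and the dashed line marks equal levels. Prom1 has means of 61.9 and 60.9 CPM, and Prom2 has 24.3 CPM in the DEN+CCl4 controls and 0 in the N-Ras+AKT controls.

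Per kilobase of exon, which allows genes to be compared, Prom1 had the higher level of the pair. In the DEN+CCl4 controls the level of Prom1 was 8.63 ± 1.96 CPM per kb and that of Prom2 4.69 ± 1.49 (SD, n = 3). Among 16999 genes, Prom1 lay between percentiles 76.9 and 83.9 in those libraries and Prom2 between 62.4 and 75.8. The ratio of Prom1 to Prom2 per kb was 1.93 ± 0.582 in the DEN+CCl4 controls and 1.80 ± 0.312 after depletion (SD, n = 3), so it differed by less than the spread between libraries.

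Within the DEN+CCl4 model, Prom1 and Prom2 were each lower in the depletion libraries than in the controls, with neither passing the test. Prom1 had 17.45, 39.98 and 35.66 CPM in depletion 6, 9 and 10, which is 28.2%, 64.6% and 57.6% of the control mean. Prom2 had 8.775, 14.77 and 12.86 CPM there, which is 36.1%, 60.8% and 52.9% of its control mean. For both genes every depletion library lay below every control, as held for 16.0% of the genes tested. Depletion 6 was the lowest and depletion 9 the highest for both. The log2 difference of Prom1 was −1.0 (SE 0.57, 95% interval −2.26 to 0.27, adjusted p = 0.381), and edgeR called 0.37% of genes in this comparison, 0.259% lower. That of Prom2 was −1.0 (SE 0.47, 95% interval −2.08 to 0.08, adjusted p = 0.302). Without the 2 libraries that stood apart the differences were −0.71 for Prom1 and −0.81 for Prom2.

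In the N-Ras+AKT model, Prom1 fell. Depletion 6, 11 and 17 had 243, 749 and 96 counts, or 5.807, 16.49 and 2.166 CPM. Those levels are 9.53%, 27.1% and 3.55% of the control mean. All 3 lay below all controls, as held for 21.5% of the genes tested, and depletion 17 was far below depletion 11. Prom1 fell by 2.90 on the log2 scale (SE 0.61, 95% interval −4.25 to −1.55, adjusted p = 0.00953). In this comparison edgeR called 23.7% of genes, 10.8% lower and 12.8% higher, and 0.735% had a log2 difference at or below that of Prom1. The test for a drop beyond 1 on the log2 scale did not pass (glmTreat, adjusted p = 0.123). Without the 2 libraries that stood apart the log2 difference was −2.44 (adjusted p = 0.0127).

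Prom2 gained a few counts in the N-Ras+AKT depletion libraries, most of them in 1 library. Depletion 6, 11 and 17 had 1, 3 and 21 counts, or 0.0239, 0.0661 and 0.474 CPM. Only depletion 17 was above the floor of 3 counts. At these counts Prom2 passed the filter only through the DEN+CCl4 libraries, and in a fit of the N-Ras+AKT libraries alone it was filtered out and had no test. The group mean of 0.188 ± 0.248 CPM (SD, n = 3) was 3.41-fold above the floor of the controls. That mean rests on depletion 17 and gives no lower bound for the group. In the fit of all libraries the adjusted p was 0.0461, which was not under the threshold without depletion 17 (adjusted p = 0.133), nor without N-Ras+AKT control 3, 10 or 15 (adjusted p = 0.11, 0.0769 and 0.0963). The level after depletion remained far under the 12.1 ± 3.06 CPM (SD, n = 3) of the DEN+CCl4 depletion libraries (adjusted p = 0.000312).

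Across both models, the mean drop of Prom1 was tested by exchanging control and depletion labels within each model. The mean log2 difference was −2.19, and the exact two-sided permutation p was 0.005, the smallest that the 400 arrangements allow. For Prom2 the mean was 0.38 (exact permutation p = 0.64), from −0.99 in DEN+CCl4 and 1.74 in N-Ras+AKT. The N-Ras+AKT value rests on controls at 0 counts and on the prior count of 2, so this mean describes neither model. All depletion libraries lay below all controls in both models for Prom1, as held for 3.94% of the genes tested. The depletion effects on Prom1 differed by −1.90 (SE 0.81), which did not pass edgeR's test (adjusted p = 0.151), and edgeR called 11.6% of genes for such a difference, 7.98% higher and 3.6% lower. Without N-Ras+AKT depletion 11 the difference was −2.94 (adjusted p = 0.0177). After depletion, Prom1 was lower in N-Ras+AKT than in DEN+CCl4 tumours (log2 −1.93, SE 0.59, adjusted p = 0.0297), with 33.7% of genes called. The groups did not overlap, as held in this direction for 22.3% of genes. That call ended without DEN+CCl4 depletion 9 or 10 or N-Ras+AKT depletion 6 (adjusted p = 0.0867, 0.0724 and 0.102).

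Genes of the bile duct epithelium, a normal site of prominin-1, fell with Prom1 in the N-Ras+AKT model. Of 20 listed, 18 were tested, 12 fell and 0 rose (11 and 0 without the 2 libraries that stood apart), where 10.8% of all genes fell and 12.8% rose, with a median log2 difference of −1.86 against −0.02 over all genes. Without those libraries edgeR called 1090 of 17013 genes lower and 1339 higher, against 1841 and 2186 with them. Cftr, the chloride channel of duct cells, fell by 4.48 (SE 0.88, adjusted p = 0.00733). Sox9, a transcription factor of duct and progenitor cells, fell by 2.51 (SE 0.43, adjusted p = 0.00452). Sctr, the secretin receptor, and Cldn4, a tight junction claudin, fell by 4.96 and 2.56 from means of 0.565 and 1.404 CPM. The DEN+CCl4 comparison had 0 of 18 past edgeR's test in either direction (median −0.25), where edgeR called only 0.37% of all genes. At an unadjusted p under 0.05, 3 of the 18 were lower there, and DESeq2 called 0. The summed level of the list was 7522 to 10920 CPM in the N-Ras+AKT control libraries but 485 to 3728 CPM in the depletion libraries, and 760.3 to 1055 and 408 to 636.4 CPM in the DEN+CCl4 groups. Most of the N-Ras+AKT sum was Spp1, osteopontin, with 7017 to 10180 CPM in controls and 292.1 to 3442 CPM after depletion, which did not pass (adjusted p = 0.108). The other 19 genes summed to 505.3 to 739.5 CPM in controls and 193 to 286.6 CPM after depletion, ranges that do not overlap. Between the controls, where Prom1 differed by −0.02, 11 of the 18 were higher in N-Ras+AKT and 2 lower (median 1.45). Of all genes 20.8% were higher and 19.8% lower there. Without the 2 libraries that stood apart 11 were higher and 3 lower, against 3774 and 3889 of all 17013 genes. Over the 12 libraries, Pearson's r of log2 CPM with Prom1 was 0.665 for Krt7 and 0.636 for Sox9. It was 0.408 for Epcam, 0.369 for Cftr and 0.163 for Spp1. The part of duct cells in the drop of Prom1 was not tested.

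More of the duct genes than of all genes shared the order of Prom1 among the N-Ras+AKT depletion libraries. Prom1 was highest in depletion 11, then 6, then 17. Epcam, an adhesion molecule of duct and progenitor cells, had 38.6%, 14.7% and 6.73% of its control mean in depletion 11, 6 and 17. Krt7, a duct keratin, had 46.3%, 16.1% and 8.05%. This order was shared by 11 of the 18 duct genes (61.1%) and by 21% of all other genes tested, whether these fell or not. On the component with 19.9% of the variance, depletion 11, 6 and 17 stood at 32.7, 48.4 and 102.1. The N-Ras+AKT controls stood at −57.3 to −21.8 there. How far the shared order goes beyond this general shift was not tested. In the DEN+CCl4 model the order of Prom1 was shared by 3 of 18 (16.7%) and by 17.3% of all.

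**Figure D3:**
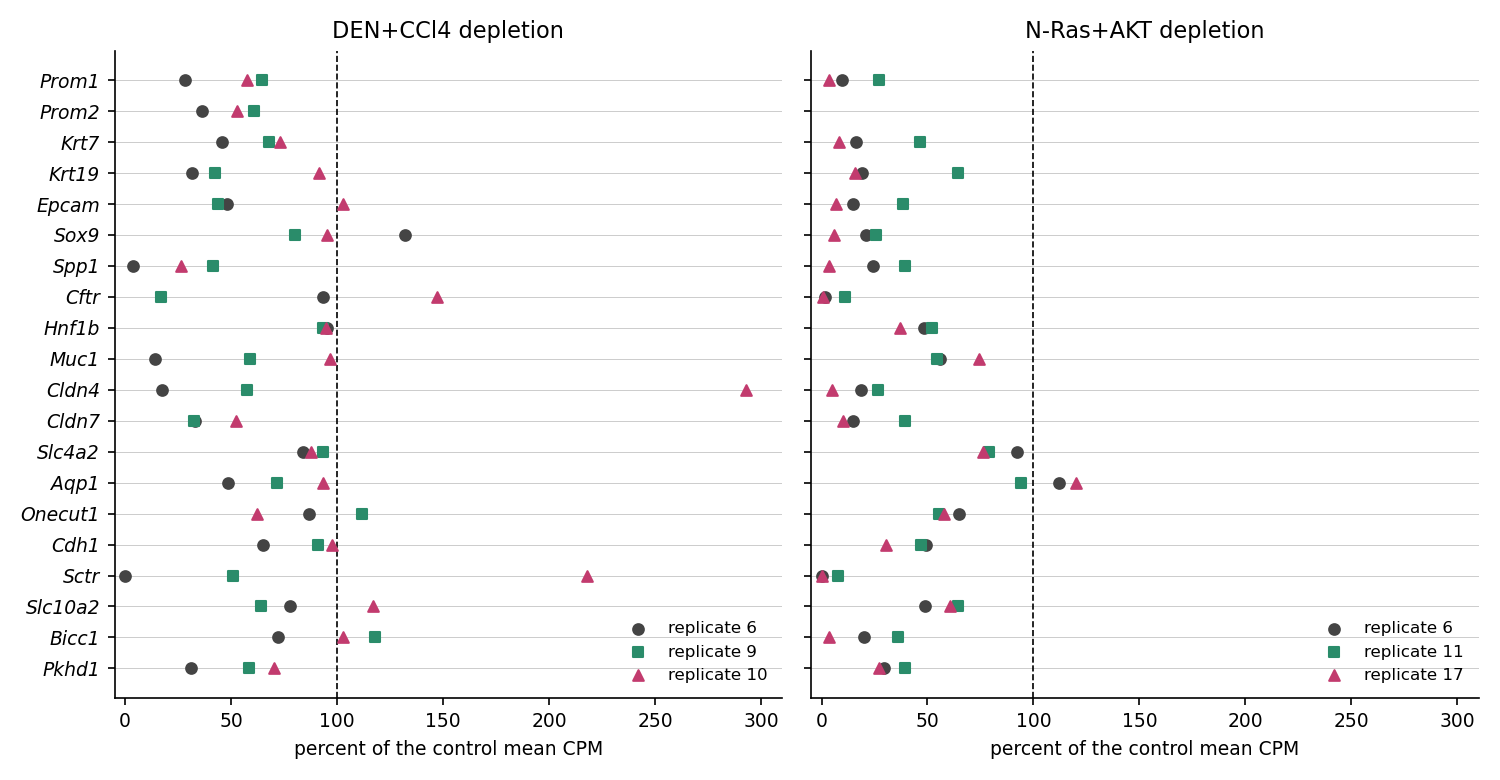
Level of Prom1, Prom2 and the 18 tested bile duct genes in each depletion library, as percent of the mean CPM of the 3 controls of the same model (horizontal, linear axis, dashed line at 100); symbols mark replicates. In the N-Ras+AKT model Prom1 is at 3.55% to 27.1% of the control mean and Prom2 is not drawn because its controls are at 0.

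Among progenitor and tumour stem cell markers, those that passed in the N-Ras+AKT model moved in both directions. Of 21 listed and 17 tested, 3 rose and 5 fell, and 2 and 4 did so without the 2 libraries that stood apart. Over all genes 12.8% rose and 10.8% fell, and without those libraries 1339 and 1090 of 17013 did so. Lgr5, a Wnt pathway receptor of stem cells, rose by 2.60 (adjusted p = 0.00334), and Aldh1a1, a retinaldehyde dehydrogenase, rose by 1.13 (adjusted p = 0.0148). Cd24a and Epcam, surface markers used beside CD133, fell by 2.28 and 2.32 (adjusted p = 0.0178 and 0.0111). Alcam, an adhesion molecule, fell by 1.29 (adjusted p = 0.0051). Of these 17, 0 passed edgeR's test in the DEN+CCl4 model, with 4 lower at an unadjusted p under 0.05 and 2 lower by DESeq2. Only 0.37% of all genes passed edgeR's test there. Nanog, Sox2 and Pou5f1 had 0 counts in every library.

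Among genes of the structures where prominins sit, some passed in each direction, in shares to be read against the 10.8% of all genes that fell and the 12.8% that rose. Of 25 genes of microvilli and primary cilia, 23 were tested, and in the N-Ras+AKT model 7 fell and 2 rose (5 and 2 without the 2 libraries that stood apart). Of all 17013 genes, 1090 fell and 1339 rose without those libraries. Vil1 (villin) and Vill (a villin-like protein) fell by 2.03 and 2.07, and Ezr (ezrin), which links membrane to actin, fell by 1.19 (adjusted p = 0.0405, 0.0136 and 0.0156). Espn (espin), an actin bundler, rose by 1.53 and Cdhr5, a cadherin of microvilli, by 0.98 (adjusted p = 0.0107 and 0.0092). Of 11 tested partners reported for prominin-1, Src, a tyrosine kinase, and Tfrc, the transferrin receptor, fell by 1.47 and 0.74, and Il6st, a cytokine receptor subunit, rose by 0.64. Without the 2 libraries that stood apart 2 still fell and 0 rose. Of 18 genes of membrane cholesterol and gangliosides, 3 fell and 2 rose (3 and 1 without those libraries), shares near those of all genes, with Cav1 (caveolin-1) falling by 1.72 (adjusted p = 0.00733) and Npc1, a cholesterol transporter of lysosomes, rising by 0.73 (adjusted p = 0.0266). The DEN+CCl4 comparison had 0 members of these 3 lists past edgeR's test, which only 0.37% of all genes passed there. At an unadjusted p under 0.05 there were 9, 2 and 6, and by DESeq2 2, 1 and 3.

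Markers of other cell types in the tissue also passed in the N-Ras+AKT model, where 12.8% of all genes rose and 10.8% fell. Of 18 hepatocyte genes 6 rose (median 0.47), and of 12 macrophage and Kupffer cell genes 9 rose (median 1.12). Of 11 tested lymphocyte genes 6 rose (median 1.70), their summed level going from 2.64 to 4.049 CPM in controls to 6.341 to 12.88 CPM. Of 12 endothelial genes 4 rose and 2 fell, of 12 stellate cell genes 1 rose, and of 6 mesothelial genes 3 fell. Without the 2 libraries that stood apart, 4 hepatocyte, 6 macrophage, 0 lymphocyte and 1 endothelial gene rose, 1 endothelial and 1 mesothelial gene fell, and the 1 stellate cell count stood. Over all 17013 genes, 1339 rose and 1090 fell without those libraries, against 2186 and 1841 with them. Of 5 tested genes of pancreas, gut, kidney and squamous epithelium 0 passed edgeR's test, with 1 at an unadjusted p under 0.05 and 0 by DESeq2, and Cela1, an elastase, had the highest level among the pancreatic genes, with group means of 42.9, 27.3, 13.4 and 10.0 CPM. Prss2, a trypsinogen, was at 0 in the DEN+CCl4 groups and at 0.245 and 0.0836 CPM in the N-Ras+AKT groups, and Cpa1, Pnlip and Amy2a2 were at 0 in all 12 libraries. For the DEN+CCl4 model edgeR's test passed 0 genes of these lists and 0.37% of all genes. By DESeq2, 8 of the 12 endothelial genes were lower there (8 also at an unadjusted p under 0.05 in edgeR). Of the lymphocyte genes 9 were lower at an unadjusted p under 0.05 and 2 by DESeq2. Over all lists and neighbours together, 175 genes, 53 had an unadjusted p under 0.05, 43 of them lower, and DESeq2 called 22, 19 of them lower. Of all 17013 genes, DESeq2 called 1066 in the DEN+CCl4 comparison. The all-gene share at an unadjusted p is not given here. The DEN+CCl4 depletion libraries lay all below the controls for 16.0% of all genes and all above for 11.5%. The part of these cell types in the Prom1 and Prom2 levels was not tested.

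Of the genes near Prom1 and Prom2, some moved in the same direction and some in the other. The sets hold 10 protein-coding genes near Prom1 and 9 near Prom2. Of 7 tested neighbours of Prom1, 3 rose in the N-Ras+AKT model. They were Tapt1 (73.1 kb away) by 0.85, Qdpr (1332.0 kb away) by 0.72 and Lap3 (1391.3 kb away) by 0.56 (adjusted p = 0.00519, 0.0105 and 0.0275). As Prom1 did, 2 fell, Ldb2, a transcriptional cofactor (370.1 kb away), by 1.22 and Fbxl5 by 0.57 (adjusted p = 0.0309 and 0.0211). Over all genes 12.8% rose and 10.8% fell, and without the 2 libraries that stood apart 3 neighbours rose and 1 fell. Of all 17013 genes, 1339 rose and 1090 fell without those libraries. Of 7 tested neighbours of Prom2, 0 were lower in N-Ras+AKT than in DEN+CCl4 controls by edgeR (0 at an unadjusted p under 0.05 and 0 by DESeq2), and 1 was higher, Mal, a lipid raft protein (log2 1.11, adjusted p = 0.0499). Between the controls 19.8% of all genes were lower in N-Ras+AKT and 20.8% higher. Counts over 7 genes are too small to set the neighbours apart from those shares. Kcnip3, which is 4.4 kb from Prom2, differed by −0.30 (SE 0.45, adjusted p = 0.625). At Rosa26, which holds the toxin allele, 2 of 3 genes fell in the N-Ras+AKT model, Gt(ROSA)26Sor by 0.67 and Setd5 by 0.34 (adjusted p = 0.049 and 0.0161), where 10.8% of all genes fell. Without the 2 libraries that stood apart 0 of the 3 passed (median −0.31 against −0.34). The antisense gene Gm16401 and the same-strand gene Gm42716 overlap Prom1, with means up to 0.301 and 0.328 CPM, and without a stated strand setting reads of antisense genes cannot be told apart from those of Prom1.

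**Figure D4:**
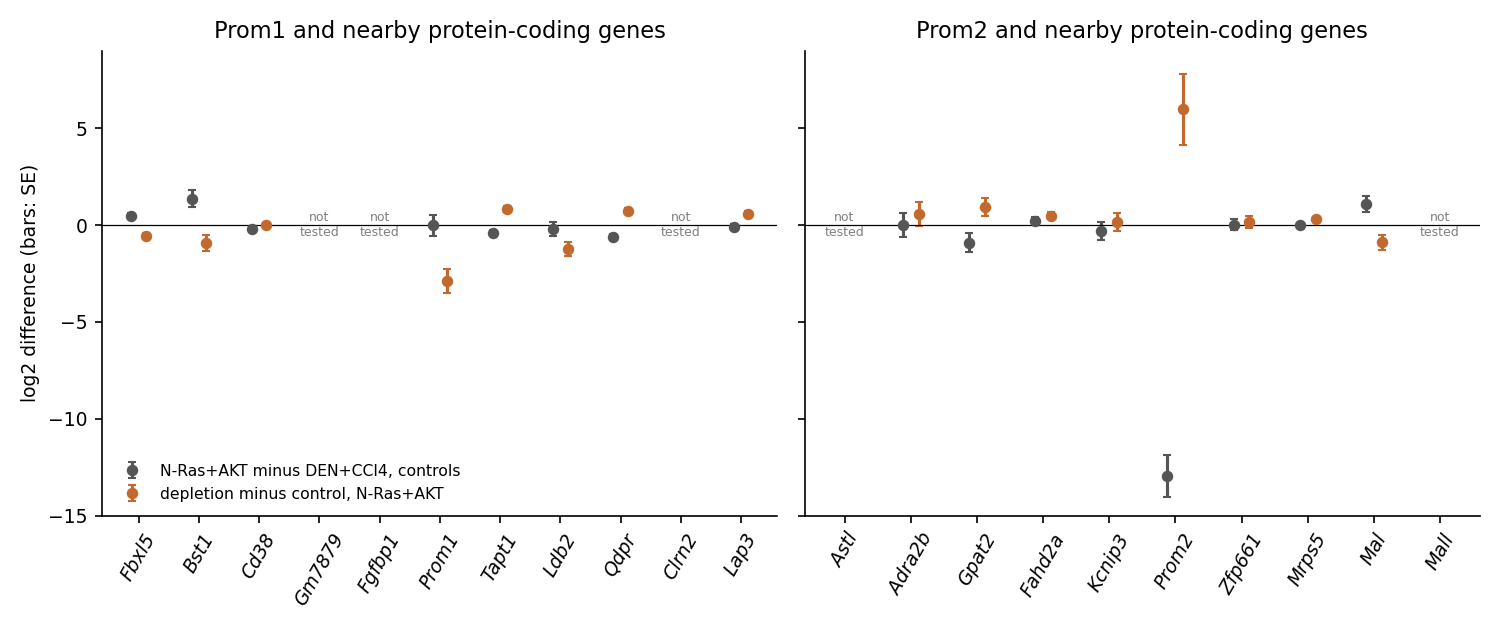
Log2 differences (vertical, with SE) of Prom1 (left), Prom2 (right) and nearby protein-coding genes in chromosome order (horizontal); grey is N-Ras+AKT minus DEN+CCl4 controls and orange depletion minus control in N-Ras+AKT. Prom2 is at −12.96 in the control comparison, a fitted value against controls at 0 and not a bound, while Kcnip3 beside it is at −0.30.

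Some genes followed Prom1 or Prom2 closely over the 12 libraries, which share 4 group means, so the correlations are descriptions. Pearson's r of log2 CPM with Prom1 was highest for Panx1, a membrane channel (0.966), Mtcl1 (0.962), Arnt2, a transcription factor (0.958), and Tgfb2, a growth factor (0.95), and the tenth, Nrip2, had 0.94. For deviations from the group means it was highest for Cct7, a chaperonin subunit (0.961), Mpp2 (0.96), Greb1 (0.947) and Nrarp, a Notch pathway regulator (0.946). Arnt2 was among the first 10 by both measures. By the measure over 12 libraries, 4 of the first 10 remained without DEN+CCl4 depletion 6 and 4 without N-Ras+AKT depletion 17, and 1 of 10 by Spearman's rho. With Prom2, r was highest for Slc38a3, a glutamine transporter (0.994), Bend7 (0.99), Lgr4 (0.989), Serpinf2 (0.988) and Esr1, the oestrogen receptor (0.988). Prom1 and Prom2 had an r of 0.235 with each other, and of −0.472 within groups. The within-group value leans on the N-Ras+AKT depletion libraries, where Prom2 had only 1, 3 and 21 counts. The 21 counts were in depletion 17, the lowest for Prom1, and the N-Ras+AKT controls at 0 add nothing. In the DEN+CCl4 groups, where Prom2 was well above the floor, both genes were lowest in control 13 and in depletion 6.

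**Figure D5:**
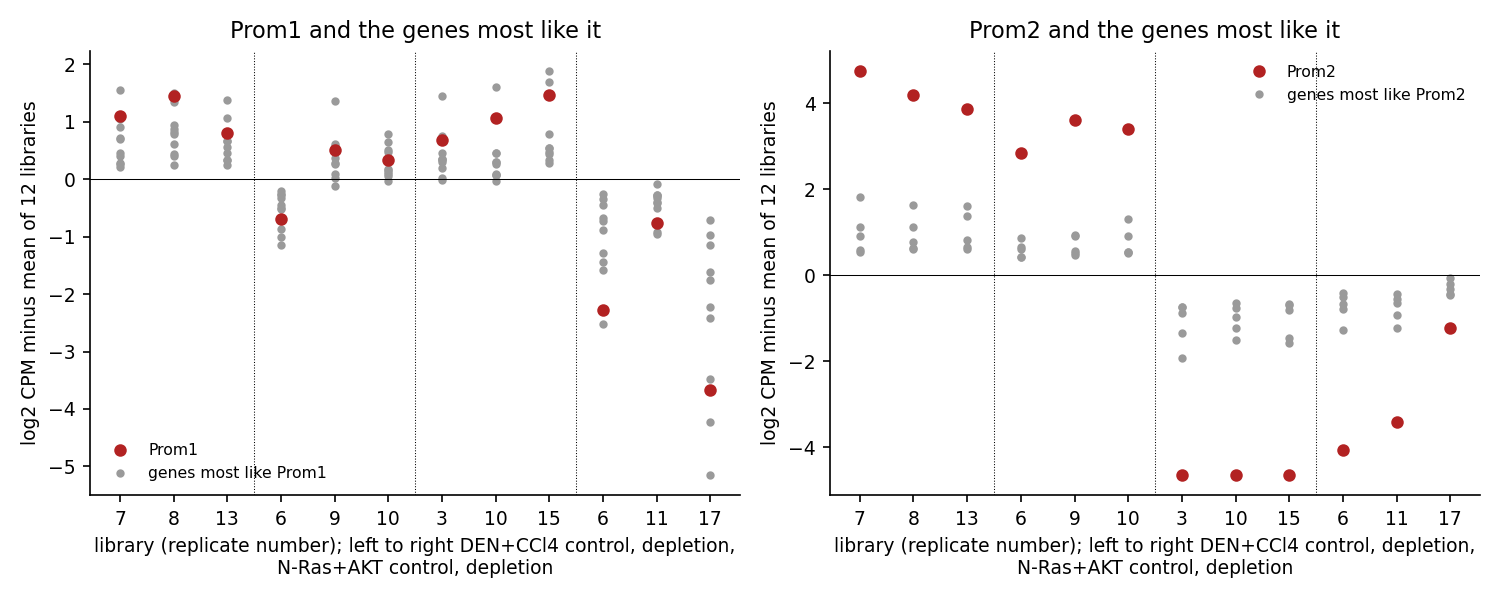
Log2 CPM minus the mean of the 12 libraries (vertical) in each library (horizontal, replicate numbers, groups split by dotted lines) for Prom1 (left, red) with the 10 genes most like it (grey), and Prom2 (right, red) with its 5 (grey). Prom1 and its genes are lowest in N-Ras+AKT depletion 17, and Prom2 and its genes are low in all N-Ras+AKT libraries.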

How the data were processed

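The authors deposited 1 table of raw counts per gene, whole numbers with no normalization, for the 12 bulk libraries. The submitters' processing notes list Cell Ranger 3.0.2, RSEM 1.3.1, STAR 2.7.3 and mm10 without saying what each was for, so the counts may be rounded RSEM estimates. The strand setting is not given in the sources used here. Per the labels' protocols, libraries were made with the KAPA mRNA HyperPrep kit. Of 55335 identifiers, 55154 matched GENCODE M21, while 181 with 0.0064% of counts did not. Single-cell data (6 samples) were not used here.

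One edgeR model (4.0.16, in R 4.3.3) with 4 group means was fitted to the 12 libraries, using TMM factors of 0.773 to 1.323, filterByExpr and robust quasi-likelihood with 8 residual degrees of freedom. The common biological coefficient of variation was 0.238. P-values were two-sided and adjusted over 17013 genes by Benjamini-Hochberg, with a threshold of 0.05. Standard errors are those implied by the F statistic. The difference beyond 1 on the log2 scale was tested with glmTreat. Likeness used log2 CPM with a prior count of 2. Alternatives were DESeq2 1.42.0, limma 3.58.1 voom, DESeq2 size factors, total counts, no filter, only the groups compared, and each library left out. Leaving out both libraries that stood apart was chosen after seeing the data. The fit was tested on simulated data. Replicates differed far beyond sampling noise (chi-square per gene 53.6 to 213).

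The genes and lists were chosen with earlier results of these data known. Named genes were Prom1, Prom2, up to 4 members per direction of each list that passed in a depletion comparison, their neighbours (up to 5 a side, 1 gene not reported here), and the genes most like them. Krt7, Spp1, Prss2, Amy2a2, Cpa1 and Pnlip were named after their values were seen. The windows before start sites are from RefSeq. Python 3.11.15 with pandas 2.3.3 compiled the tables.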

Additional observations from a re-analysis of the deposited data

Results flagged for a closer look

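The effect of depletion differed between the models by edgeR's test of the difference itself for 29 of the 96 tested genes named, given here as the log2 difference of effects, N-Ras+AKT minus DEN+CCl4. Over all genes 11.6% passed (1970 of 17013), and many named genes were picked for passing in a depletion comparison, which raises their share. Without the 2 libraries that stood apart, 10 of the 29 passed, which were Sox9, Espn, Hpd, Stab2, Vwf, Cd79a, Fabp2, Bcam, Esr1 and Dclk3. Calls over the lists went from 7 to 0 higher for macrophage, 5 to 1 for endothelial and 10 to 2 for lymphocyte genes, and from 2 to 0 lower at Rosa26. Over all 17013 genes such calls also dropped, from 1357 to 605 higher and from 613 to 239 lower. Prom2 differed by 6.98 (adjusted p = 0.0446), from −1.0 in DEN+CCl4 and a fitted 5.98 in N-Ras+AKT, where the controls are at 0 and Prom2 passed the count filter only through the DEN+CCl4 libraries, so the value is a fitted one and no measured difference. This call ended without any 1 of 10 of the 12 libraries, all except N-Ras+AKT depletion 6 and 11. Among progenitor markers these were Lgr5 (2.36), Aldh1a1 (1.4) and Sox9 (−2.55). Among genes of microvilli they were Espn (2.58) and Cdhr5 (1.12). Hepatocyte genes were Cyp2e1 (2.76) and Hpd (2.69). Endothelial genes were Clec4g (2.23), Stab2 (2.15), Tek (1.21), Eng (1.4) and Vwf (−1.51), and macrophage genes Timd4 (2.47), Clec4f (2.04) and Cd5l (1.95). Lymphocyte genes were Cd79a (4.5), Nkg7 (3.44) and Cd8a (3.49), all at means of 1.51 CPM or less. The mesothelial gene Upk3b differed by −4.12 and the gut gene Fabp2 by 1.3. Genes at Rosa26 were Gt(ROSA)26Sor (−1.12) and Setd5 (−0.42). Of the genes most like Prom1 these were Greb1 (−1.66) and Bcam (−2.1), and of those most like Prom2 Serpinf2 (0.98), Esr1 (1.41), Dclk3 (2.92) and Car14 (1.19). Adjusted p-values of the 29 lay between 0.0038 and 0.0495. Prom1 is not among them.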

How the results depend on the processing

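No paired analysis was possible because the groups share fewer than 2 replicate numbers. The drop of Prom1 in N-Ras+AKT tumours passed under all 13 alternatives (log2 −3.93 to −2.44, adjusted p 4.91e-05 to 0.0373), and its DEN+CCl4 difference under none (−1.22 to −0.71). Total counts moved the all-gene median of the control comparison from 0.04 to 0.68, and Prom1 to 0.63 there, so relative to all genes it was again near 0. Total counts moved the other all-gene medians to 0.12 and −0.23 for the depletion comparisons in DEN+CCl4 and N-Ras+AKT, −0.36 for their difference and 0.35 after depletion. With 1 library left out, the Prom1 control difference ranged from −0.25 to 0.16 and turned sign in 2 fits (0.16 and 0.15), and the difference of its depletion effects ranged from −2.94, where it passed, to −1.47. Its difference after depletion did not pass with no filter (−1.91), only the groups compared (−1.94) or total counts (−1.58), nor in 3 of the fits with 1 library left out (−1.82, −1.73 and −1.70), which ranged from −2.96 to −1.5.

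The rise of Prom2 in N-Ras+AKT tumours did not pass without both libraries that stood apart (4.02), with no filter (5.98) or with voom (3.61), and with 1 library left out ranged from 3.98 to 6.47. In the fit of only the groups compared it was filtered out. The difference of Prom2 effects did not pass in those settings (4.82, 6.99 and 4.56) or in 10 of 12 fits with 1 library left out, which ranged from 4.96 to 7.47.

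Genes called in DEN+CCl4 numbered 63, against 26 without both libraries, 1066 with DESeq2, 171 with no filter, 13 with only the groups compared, 41 with total counts and 2 to 465 with 1 library left out. In N-Ras+AKT they were 4027, against 2429 without both libraries, 2626 with only the groups compared, and 1768 to 4126 with 1 library left out. For the difference they were 1970, against 844, 2984 with DESeq2, 2970 with total counts, and 895 to 2326. In the control comparison total counts called 10460. By Spearman's rho 1 of the 10 genes most like Prom1 and 1 of the 5 most like Prom2 stayed among the top, with total counts 3 of those 5. With 1 library left out 4 to 8 and 3 to 5 stayed. The cause of these changes was not tested.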

Other observations

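Prom2 was the only gene of 7768 with a mean of at least 10 CPM in the DEN+CCl4 controls that had 0 counts in all N-Ras+AKT controls. At 1 CPM or more there were 2 such genes of 12714, Prom2 and Gm20458 (1.52 CPM). In the other direction, 1 of 7928 genes at 10 CPM or more in the N-Ras+AKT controls had 0 counts in all DEN+CCl4 controls, Serpinb9e (17.7 CPM), a member of a family of near-identical genes whose counts are uncertain. This way of counting was chosen after the Prom2 values were seen.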
